A study of Homo sapiens with 2 samples.

Results

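The array carried 138405 different probes that were not controls, and 78238 of them belonged to a custom series whose names begin with CUST_H6L and were printed as 1 spot on each array. These 78238 oligonucleotides of 60 bases, called second-series probes here, were selected by name and number of spots alone. A further 1166 probes of the same series were printed more often and are not included, so that the whole series held 79404 probes. The comparison set was the 34549 probes of the Agilent catalogue, with names beginning A_, that were also printed once.

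The arrays were hybridised with RNA of HepG2, a human liver cancer cell line of hepatocyte-like character. One array measured cells given a synthetic siRNA of scrambled sequence (NC), and the other measured cells given a mix of 3 siRNAs against FOXA1 (siFOXA1), each 48 h after transfection. Both conditions therefore shared the cell line, the transfection and the time, each was measured on 1 array, and both arrays lay on 1 slide. Differences between them are therefore given as values of 2 arrays, without a test. The scanner files repeat the probe's own name as the gene name and hold no description or position, so the level of FOXA1 and of the hepatocyte markers was not analysed here.

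FOXA1 is a forkhead transcription factor that opens compact chromatin and helps to set the gene programme of hepatocytes. A one-colour expression array reads labelled copies of cellular RNA by base pairing with a short immobilised oligonucleotide, and the brightness of a spot depends on the sequence of that oligonucleotide as well as on the amount of RNA. MicroRNAs, which some of these probes cover, are cut from a folded precursor called the hairpin, and the bases near the 5′ end of the mature miRNA, the seed, pair with target transcripts.

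The 5 second-series probes with the largest decreases in siFOXA1 are shown because all of them carry the string GCACAC or CACACA, which is in capitals.
CUST_H6L_56950: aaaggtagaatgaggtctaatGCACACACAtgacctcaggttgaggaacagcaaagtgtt
CUST_H6L_05507: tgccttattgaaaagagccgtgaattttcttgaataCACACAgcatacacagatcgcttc
CUST_H6L_71980: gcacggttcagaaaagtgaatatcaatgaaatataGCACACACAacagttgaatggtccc
CUST_H6L_33033: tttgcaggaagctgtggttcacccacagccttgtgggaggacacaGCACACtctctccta
CUST_H6L_75830: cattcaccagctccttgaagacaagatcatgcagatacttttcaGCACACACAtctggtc
The 5 with the largest increases are shown for contrast and hold neither string.
CUST_H6L_27005: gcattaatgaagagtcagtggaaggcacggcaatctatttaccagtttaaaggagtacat
CUST_H6L_11415: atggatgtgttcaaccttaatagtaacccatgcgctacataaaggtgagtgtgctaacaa
CUST_H6L_59713: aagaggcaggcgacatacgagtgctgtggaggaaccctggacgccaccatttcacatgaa
CUST_H6L_21985: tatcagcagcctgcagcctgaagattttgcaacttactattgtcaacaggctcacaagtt
CUST_H6L_15910: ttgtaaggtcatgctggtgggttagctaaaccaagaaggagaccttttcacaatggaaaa
The 5 brightest on NC set the upper end of the signal range.
CUST_H6L_76767: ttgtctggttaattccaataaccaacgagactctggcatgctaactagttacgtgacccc
CUST_H6L_66264: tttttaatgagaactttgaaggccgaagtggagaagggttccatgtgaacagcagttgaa
CUST_H6L_60892: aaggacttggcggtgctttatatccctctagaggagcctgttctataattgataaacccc
CUST_H6L_52279: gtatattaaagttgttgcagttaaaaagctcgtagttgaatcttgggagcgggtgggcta
CUST_H6L_63727: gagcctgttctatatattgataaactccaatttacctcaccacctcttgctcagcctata
None of these 15 probes lay wholly inside a miRNA hairpin or a promoter window of the RefSeq tables, and no chromosome or gene is given for them here.

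One subset of the second series could be placed. Without a mismatch, 688 probes lay wholly inside a human miRNA hairpin of RefSeq (GRCh38.p14) on the strand of the miRNA, against 1 whose reverse complement did. The former covered 688 of the 1562 hairpins in the table (44.1%), and 711 probes shared at least 20 bases with a hairpin. Of the catalogue probes printed once, 2 lay wholly inside a hairpin on the miRNA's strand and 9 shared at least 20 bases. Hairpins of 1 chromosome were left out when the hairpin probes were ranked. The examples are those with the largest decreases and increases among the ranked ones, the 2 brightest and members of the let-7 family, a group of miRNAs that limits proliferation. Bases of a mature miRNA listed in the RefSeq table used here are in capitals.
MIR608, chr10:100975024-100975083, plus strand: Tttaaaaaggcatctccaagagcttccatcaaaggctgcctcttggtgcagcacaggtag
MIR3144, chr6:120015193-120015252, plus strand: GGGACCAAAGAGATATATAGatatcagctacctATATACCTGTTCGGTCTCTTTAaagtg
MIR365A, chr16:14309310-14309369, plus strand: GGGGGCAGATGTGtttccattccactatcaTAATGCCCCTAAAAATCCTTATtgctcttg
MIR198, chr3:120395668-120395727, minus strand: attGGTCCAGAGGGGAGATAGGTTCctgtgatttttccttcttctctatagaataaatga
MIR8081, chr9:106600963-106601022, plus strand: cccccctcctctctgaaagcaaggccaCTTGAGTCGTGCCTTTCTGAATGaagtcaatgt
MIR7110, chr3:123161813-123161872, plus strand: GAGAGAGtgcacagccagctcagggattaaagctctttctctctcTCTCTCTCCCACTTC
MIR98, chrX:53556223-53556282, minus strand: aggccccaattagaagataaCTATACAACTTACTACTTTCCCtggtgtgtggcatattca
MIRLET7F2, chrX:53557192-53557251, minus strand: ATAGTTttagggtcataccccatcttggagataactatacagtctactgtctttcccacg
MIRLET7A1, chr9:94175975-94176034, plus strand: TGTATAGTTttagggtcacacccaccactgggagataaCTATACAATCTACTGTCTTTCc
MIRLET7D, chr9:94178840-94178899, plus strand: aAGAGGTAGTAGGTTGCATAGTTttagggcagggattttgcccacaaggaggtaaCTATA
MIRLET7G, chr3:52268292-52268351, minus strand: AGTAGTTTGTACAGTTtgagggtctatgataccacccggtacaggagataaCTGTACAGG

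The mature miRNAs from the 5′ arms of the let-7 hairpins share 1 seed, bases 2 to 8, shown in capitals as RefSeq gives them.
hsa-let-7a-5p: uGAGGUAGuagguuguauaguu
hsa-let-7d-5p: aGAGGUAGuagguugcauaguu
hsa-let-7f-5p: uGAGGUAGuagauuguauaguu
hsa-let-7g-5p: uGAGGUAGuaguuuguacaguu
hsa-miR-98-5p: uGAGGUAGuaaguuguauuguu
Further arms belong to hairpins described below, and each has a seed of its own.
hsa-miR-365a-3p: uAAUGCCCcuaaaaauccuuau
hsa-miR-198: gGUCCAGAggggagauagguuc
hsa-miR-3144-3p: aUAUACCUguucggucucuuua
hsa-miR-8081: cUUGAGUCgugccuuucugaaug
A probe of 60 bases on a hairpin reads any RNA that contains the hairpin, the host transcript included. Its signal is not taken here as a level of the mature miRNA, which is shorter than the probe.

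The second-series probes had a narrow base composition. Over all of their bases 29.4% were A, 20.6% C, 21.8% G and 28.2% T. The number of G and C bases per probe averaged 25.5 with an SD of 2.68 across probes, from 9 to 34. In 90.7% of the probes it lay between 21 and 27, and a smaller set of 6.0% lay between 31 and 33. Catalogue probes had nearly the same mean, 25.9, but a wider spread, with an SD of 4.73, 74.0% between 21 and 27 and 16.3% between 31 and 33. The spread and not the centre therefore separated the kinds.

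Other features of the listed sequence also differed from the catalogue. CpG was depleted more strongly, at an observed share of 0.221 of that given by the C and G contents, against 0.323 in catalogue probes. A reading frame without a stop codon was present in 78.5% of second-series probes as listed and in 79.1% of their reverse complements. In the catalogue probes the listed strand held one more often than the reverse complement, in 81.5% against 79.6%. AATAAA or ATTAAA, the usual polyadenylation signals, were found in 6.59% of second-series probes as listed and 5.07% reverse-complemented, against 10.4% and 6.19% of catalogue probes. Catalogue probes named A_19, A_21 and A_22 resembled the second series in the reading frames, with 77.7% and 78.0%, but not in the polyadenylation signals, with 10.9% as listed. Only 3.11% of the second-series probes, 2436, shared 20 or more bases with another second-series probe, and the largest such group held 61.

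A spot is called detected here where the scanner software flagged it as well above background. After removal of outlier spots, 4 on NC and 9 on siFOXA1, 78225 second-series probes had a value on both arrays. Of these 50.9% were detected on NC and 49.5% on siFOXA1, against 67.4% and 66.7% of the catalogue probes. On both arrays 37121 second-series probes (47.5%) were detected, 2678 (3.42%) were detected on NC alone, 1638 (2.09%) on siFOXA1 alone, and 36788 (47.0%) on neither. The corresponding share on neither array was 30.7% for the catalogue. The second series was thus detected less often than the catalogue on either array.

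The signals followed the same order. The processed signal of second-series probes on NC had quartiles of 2.22, 11.2 and 70.9 and reached 514285, and on siFOXA1 the quartiles were 2.17, 9.84 and 61.2 with a maximum of 526882. The catalogue quartiles were 4.84, 42.8 and 250.4 on NC. Among detected second-series probes the median was 68.2 on NC and 62.3 on siFOXA1, against 134.6 and 120.2 for the catalogue. For 28.8% of the second-series probes on NC and 29.1% on siFOXA1 the software had put a surrogate value in place of a dim signal, and these values have no order. Signals of different probes are not compared as amounts of RNA.

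At the upper end, 543 second-series probes (0.694%) exceeded a signal of 10000 on NC and 440 (0.562%) on siFOXA1. CUST_H6L_76767 had a signal of 514285 on NC and 526882 on siFOXA1. CUST_H6L_66264 had 488436 and 508434. CUST_H6L_60892 had 456913 and 446441. The next were CUST_H6L_52279 with 424654 and 410665 and CUST_H6L_63727 with 422522 and 426034. None of the second-series spots was flagged as saturated, and the log2 siFOXA1/NC ratios of these 5, scaled as described below, lay between 0.15 and 0.26.

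Detection followed the number of G and C bases. It was 12.1% on NC for second-series probes with at most 18 such bases, 34.2% for 21 to 22, 51.7% for 25 to 26, 55.1% for 27 to 28 and 80.6% for 31 to 33. The values on siFOXA1 were 10%, 32.4%, 50.4%, 53.9% and 79.7%. In the catalogue the same classes gave 33.2%, 54.7%, 66.9%, 69.98% and 86.7% on NC. Detection was lower in the second series in each of these classes, and the catalogue shares weighted to the second series' G and C counts were 66.4% on NC and 66.1% on siFOXA1. Both stood above the 50.9% and 49.5% of the second series.

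Cytosine and guanine did not go together. Of second-series probes with at most 8 C bases 32.02% were detected on NC, and the share was 37.4% at 9 to 11, 49.7% at 12 to 14, 69.8% at 15 to 17 and 88.8% at 18 or more. For G the same classes gave 67.7%, 58.7%, 48.3%, 43.1% and 43.2%. More C bases thus went with more detection and more G bases with less. In the catalogue C gave 52.9%, 56.8%, 65.2%, 79.1% and 94.4%, whereas G gave 65.1%, 65.9%, 67.0%, 68.0% and 71.9%. Detection fell with G in the second series and rose slightly with it in the catalogue. Signals of C-rich probes were also higher, with medians on NC of 2.88 at up to 8 C bases and 116 at 18 or more.

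The contrast was also present at a fixed sum of both bases. Among second-series probes with 25 or 26 G and C bases, 36.0% of those where G exceeded C by 8 or more were detected on NC, with a median signal of 4.06. Where C exceeded G by 8 or more the share was 82.8% and the median signal 70.4. On siFOXA1 the shares were 35.3% and 81.7%. Catalogue probes of the same sum gave 55.7% and 88.3% on NC. Over all second-series probes, Spearman's rank correlation with the log2 signal on NC was 0.37 for the C count, -0.17 for the G count, -0.29 for the A count and 0.13 for the T count (n = 78225 probes that share an array and overlap in composition). In the catalogue it was 0.32, 0.03, -0.31 and -0.01 (n = 34543). These values include the surrogate signals. Over the 37121 second-series probes detected on both arrays the correlations were weaker, 0.17 for C, -0.09 for G, -0.03 for A and -0.03 for T. The correlations are descriptions across probes, which are not replicates, and carry no p-value.

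Purine and pyrimidine content summed these patterns. Second-series probes with at most 22 C and T bases were detected on NC in 29.5% of cases, and those with 38 or more in 84.3%. The median signals on NC were 2.45 and 75.1. The rank correlation of the log2 siFOXA1/NC ratio with each base count lay between -0.04 and 0.03 over the 37121 probes detected on both arrays. The share of these past 1.4-fold did move with C, from 11.1% lower and 12.6% higher at up to 8 C bases to 4.76% and 4.25% at 18 or more, beside the signals given above.

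Detection also differed along the probe numbers. Over 8 blocks of probe numbers it ranged on NC from 67.4% for 10001 to 20000 to 38.9% for 60001 to 70000, with median signals of 33.2 and 4.80 and a mean of 25.9 and 25.1 G and C bases. Blocks with nearly the same mean also differed, since probes numbered up to 10000 had a mean of 25.34 and were detected in 56.6%, and those numbered 40001 to 50000 had 25.36 and 41.1%.

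The siFOXA1/NC ratio was taken after each array's log2 signal had been set to its 75th percentile over all probes, and probes past 1.4-fold were counted as lower or higher. Of the 41437 second-series probes detected on at least 1 array, 4992 (12.05%) were lower and 4550 (10.98%) were higher, beside 12.2% and 11.5% of all probes on the array. A probe detected on 1 array alone passed this filter through the array where it was high. Over the 37121 detected on both arrays, 3210 (8.65%) were lower and 3144 (8.47%) were higher, beside 9.32% and 9.23% of all probes. The shares of the second series lay near these backgrounds. Decreases made up 50.5% of the probes past 1.4-fold in this set. In the set of 41437 they made up 52.3%. This share was 49.4% under cyclic loess, 77.7% without scaling and 94.9% with scaling to the spike-in controls, so that the split between directions depends on the scaling. It was 49.0% with a floor at the lowest detected signal and 46.7% at 2-fold. The median log2 ratio of the 37121 probes was -0.02 with quartiles of -0.22 and 0.18, and its sign turned to 0.01 under cyclic loess and to 0.00 under normexp.

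For 1782 of the lower probes only NC was detected, and for 1406 of the higher ones only siFOXA1, so that their folds are bounds. Set against the higher of the dim probe's own signal and the lowest detected signal on that array, 9.73 on NC and 9.42 on siFOXA1, 738 of the former were still at least 1.4-fold lower and 970 of the latter at least 1.4-fold higher. The probes past 1.4-fold were dim as a whole, with a median signal on NC of 31.6 among the lower and 17.7 among the higher ones.

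Probes of the second series with identical sequences give the error of a single spot on these arrays. There were 95 sequences shared by 190 probes, and in 61 pairs both probes were detected on both arrays. Their log2 ratios had a pooled within-pair SD of 0.24, and the median difference within a pair was 0.11. In 4 pairs the ratios differed by more than 1.4-fold, with a largest difference of 1.58. A ratio read from a single spot can thus differ from a second reading by more than the 1.4-fold threshold, which is the fold the study applied.

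At matched signal the second series had fewer probes past 1.4-fold than the catalogue. Probes detected on both arrays were divided into 5 classes of equal size by the mean scaled signal of second-series probes. In the dimmest class, with a median signal of 18 on NC, 11.2% of second-series and 11.2% of catalogue probes were lower, and 13.4% and 16.4% were higher. In the next class, with a median of 36.96, 11.05% against 11.8% were lower and 8.81% against 14.1% higher. In the middle class, with a median of 78.7, 8.46% against 11.9% were lower and 7.70% against 11.6% higher. In the brightest class, with a median of 1015, 6.13% against 10.6% were lower and 5.66% against 7.54% higher. The shares of decreases lay close together in the dimmer 2 classes and further apart in the middle and the brightest one.

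The spread of the ratios showed the same. The interquartile range of the log2 ratio fell from 0.54 in the dimmest to 0.31 in the brightest class of the second series, and from 0.58 to 0.38 in the catalogue. With the catalogue weighted to the signal of the second series over 20 classes, 11.2% of catalogue probes were lower and 11.95% higher, against 8.65% and 8.47%. With both kinds limited to 21 to 27 G and C bases the values were 12.2% and 12.3%, against 8.86% and 8.54%.

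The catalogue was not uniform in this respect. Weighted in the same way, 13.1% of the catalogue probes named A_23 were lower and 15.1% higher, whereas the figures were 7.62% and 9.29% for A_21 and 7.65% and 6.67% for A_22. The shares of the second series, 8.65% and 8.47%, lay above those of A_22 in both directions and above A_21 for decreases. They lay below those of A_23, A_24, A_32 and A_33 and of A_19, with 10.8% and 10.1%. A_19 held only 147 probes, and without weighting its shares were 7.48% lower and 10.2% higher. With 1 array per condition these shares carry no test, and the number of arrays limits their precision.

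Within the second series the share that was lower moved with the probe number as detection did. Over probes detected on both arrays it was 10.6% for numbers 10001 to 20000 and 6.32% for 60001 to 70000, and the share that was higher was 9.16% and 8.12%. Across 4 bands of array rows the share that was lower ranged from 8.11% to 9.51% and the share that was higher from 7.25% to 9.51%, with median log2 ratios from -0.04 to -0.00.

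Large decreases in the second series were rare and carried a common string. At 8-fold, 12 of the 37121 second-series probes were lower (0.0323%) and 26 higher (0.0700%), against 1 and 25 of 22377 catalogue probes (0.00447% and 0.112%). At 4-fold, 70 second-series probes were lower (0.189%) and 82 higher (0.221%), against 41 (0.183%) and 124 (0.554%) catalogue probes. GCACAC or CACACA, chosen after the values were seen, was present in 10 of the 12 and in 55 of the 70 lower probes (78.6%), in 3 of the 82 higher ones (3.66%), and in 3.06% of all 37121.

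CUST_H6L_56950 had a signal of 649 on NC and 50.3 on siFOXA1, with errors by the scanner software of 64.9 and 5.40, which is a log2 ratio of -3.49. CUST_H6L_05507 went from 1435 to 119 (log2 ratio -3.39). CUST_H6L_71980 went from 412 to 36.2 (log2 ratio -3.31). All 3 were bright on NC and detected on siFOXA1. CUST_H6L_33033 had 465 and 42.4 (log2 ratio -3.25), and CUST_H6L_75830 had 806 and 75.9 (log2 ratio -3.21). The pair of probes past 8-fold without either string was CUST_H6L_31126, with signals of 1479 and 159, and CUST_H6L_56191, with 1297 and 133, and these were named after their values were seen.

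The share that was lower was larger for the longer strings, whose probes are also among those of the shorter ones. In second-series probes detected on both arrays, 189 of 926 with CACACA (20.4%) and 126 of 447 with GCACAC (28.2%) were lower. With GCACACA it was 89 of 232 (38.4%), and with GCACACAC 55 of 82 (67.1%), where the median log2 ratio was -1.56. Catalogue probes with GCACACAC gave 24 of 35 (68.6%) and a median of -1.55, so that the pattern was not particular to the second series. Without probes holding GCACAC or CACACA, 8.30% of the second series was lower and 8.50% higher.

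The largest increases started from dim signals. CUST_H6L_27005 had a signal of 33.02 on NC and 485 on siFOXA1, with errors of 4.03 and 48.6, which is a log2 ratio of 4.08. CUST_H6L_11415 went from 37.3 to 515 (log2 ratio 3.99), and CUST_H6L_59713 from 51.3 to 560 (log2 ratio 3.65). CUST_H6L_21985 had 18.4 and 194 (log2 ratio 3.59), and CUST_H6L_15910 had 10.65 and 112 (log2 ratio 3.59). The 26 probes past 8-fold higher had a median signal of 25.99 on NC and 218 on siFOXA1, while the 12 past 8-fold lower had 692 and 65.1. Under normexp with its offset, which shrinks dim values, the log2 ratios of the 5 ranged from 1.47 for CUST_H6L_15910 to 2.76 for CUST_H6L_11415.

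Detection of the probes on miRNA hairpins is given beside that of the whole second series, which was 50.9% on NC and 49.5% on siFOXA1. Of 687 with a value on both arrays, 325 (47.3%) were detected on NC and 299 (43.5%) on siFOXA1, with median signals of 8.87 and 6.55. Of the 336 detected on at least 1 array, 45 (13.4%) were lower and 27 (8.04%) higher, beside 12.2% and 11.5% of all probes. Over the 288 detected on both arrays, 19 (6.60%) were lower and 18 (6.25%) higher, beside 9.32% and 9.23%, and the median log2 ratio was 0.01. The remaining decreases rested on probes that were not detected on siFOXA1. Under normexp with its offset 1 hairpin probe was lower (0.298%) and 5 were higher (1.49%), beside 2.71% and 2.43% of the second series under the same setting. Without scaling these were 82 (24.4%) and 12 (3.57%), beside 23.2% and 6.65%, and with spike-in scaling 202 (60.1%) and 3 (0.893%), beside 61.3% and 3.33%. With a floor at the lowest detected signal they were 29 (8.63%) and 21 (6.25%), beside 9.53% and 9.93%. At 2-fold they were 19 (5.65%) and 3 (0.893%), beside 3.04% and 3.47%.

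Where the hairpin lies went with detection. Of 546 hairpin probes inside the span of another RefSeq gene, on whichever strand, 52.6% were detected on NC, against 26.95% of the 141 outside every such span. By composition it was 25.2% with under 24 G and C bases, 36.9% with 24 to 27 and 69.2% with more. A whole mature miRNA of the RefSeq table lay within 488 of the probes. Detection was 53.5% on NC for probes with no whole listed arm, 44.8% with 1 and 44.7% with both.

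Most probes on the largest miRNA clusters, those of chromosomes 14 and 19, were not detected. In the cluster of chromosome 14 between 101022066 and 101066801, which belongs to an imprinted region, 8 of 34 hairpin probes were detected on NC, with a median signal of 2.35 and a highest of 317. In the cluster of chromosome 19 between 53669157 and 53758318, known for its expression in placenta, 4 of 26 were, with a median of 2.27. Of the 5 probes on the MIR302 and MIR367 cluster of chromosome 4, known from pluripotent stem cells, 1 was. The cluster of MIRLET7A1, MIRLET7F1 and MIRLET7D on chromosome 9 was detected with all 3 probes on both arrays. On NC 4 of 7 probes were detected for MIR532 to MIR502 on chromosome X, 4 of 4 for MIR3689 and 2 of 3 for MIR449. For MIR337 to MIR136 it was 1 of 4, for MIR450B to MIR424 1 of 4 and for MIR892C to MIR892B 1 of 5. Over all clusters of 3 or more hairpins, 29 of 95 probes were detected on NC.

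Among ranked hairpin probes detected on both arrays, the largest increase was on MIR365A, within the span of its host gene MIR193BHG. Its signal was 23.2 on NC and 54.1 on siFOXA1, with errors of 3.26 and 5.88 (log2 ratio 1.42). MIR198, whose hairpin lies within the span of FSTL1, a secreted glycoprotein gene, had 85.9 and 181 (log2 ratio 1.28). MIR604, within SVIL, had 43.96 and 71.1 (log2 ratio 0.89). Each was chosen for its size and read from 1 spot on each array, and identical probes differed by up to 1.58. Under normexp MIR365A and MIR198 were past 1.4-fold, with 0.53 and 0.84, and MIR604 was not, with 0.44.

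The largest decrease among ranked hairpin probes detected on both arrays was on MIR608, within the span of SEMA4G. Its signals were 75.3 and 27.6, with errors of 7.79 and 3.36 (log2 ratio -1.25). MIR3144 had 31.6 and 13.02 (log2 ratio -1.08), and MIR8057, within KCTD1, had 38.5 and 16.5 (log2 ratio -1.02). MIR4724, within RAB11FIP4, had 66.0 and 31.1 (log2 ratio -0.88). Of these 4, only MIR608 was past 1.4-fold under normexp, with a log2 ratio of -0.62. The only hairpin probe left out was that of MIR5006, within VWA8, where the signal was 1222 on NC and 4973 on siFOXA1, and the latter spot was left out because the software had flagged it, with an error of 1211.

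The brightest of the ranked hairpin probes was on MIR8081 at 86485 on NC and 66908 on siFOXA1. Next was MIR7110, within the span of the protein disulfide isomerase gene PDIA5, at 42968 and 47222. Their log2 ratios were -0.17 and 0.34. MIR4769, within SYN1, had 9868 and 7981, and MIR3162, within OSBP, had 8845 and 7396. None of these 4 passed 1.4-fold.

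Of the let-7 hairpins some were detected and some were not. MIRLET7G had signals of 59.2 on NC and 65.2 on siFOXA1, MIRLET7A1 36.0 and 23.5, and MIRLET7I 29.8 and 30.7. MIRLET7D had 19.3 and 17.4, and MIRLET7F1 had 17.4 and 17.6. MIRLET7A2 at 3.49 and 2.13 and MIRLET7C at 2.23 and 2.36 were not detected on either array. The 5 detected probes named first did not pass 1.4-fold, with log2 ratios from -0.41 to 0.34.

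MIR98 and MIRLET7F2 lie next to each other on chromosome X within the span of HUWE1, a ubiquitin ligase gene. MIR98 had 12.8 and 21.3 (log2 ratio 0.94), and its log2 ratio was 0.27 under normexp. MIRLET7F2 had 8.87, not detected on NC, and 14.7, and the log2 ratio of 0.93 rests on its own undetected signal, which is below the lowest detected signal of 9.73. Both signals were near the lowest detected level.

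For MIR423, whose hairpin lies within NSRP1, both strands were represented. The probe on the strand of the miRNA had a signal of 14.8 on NC and 7.22 on siFOXA1. CUST_H6L_74765, its reverse complement and the only probe lying wholly inside a hairpin on the opposite strand, had 2856 and 2454. The former was detected on NC alone and the latter on both arrays. In all, 10 second-series probes formed such pairs of complementary sequence.

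Second-series probes that overlap a catalogue probe show how far the kinds read alike. On the same strand 961 of them shared 20 or more bases with a catalogue probe printed once, and in 815 pairs both probes were detected on both arrays. The log2 ratios of these pairs differed by a median of 0.07, and 39 pairs (4.79%) were more than 1.4-fold apart. In 111 pairs the second-series probe was past 1.4-fold, and the catalogue probe was past it in the same direction in 75 and in the opposite direction in 0. Pearson's r of the log2 ratios was 0.84 across the 815 pairs, which share probes, arrays and bases, and is a description. Shared bases are in capitals for 2 of the pairs with the largest joint change.
CUST_H6L_28180: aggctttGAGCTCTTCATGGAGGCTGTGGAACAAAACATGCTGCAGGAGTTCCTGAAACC
A_33_P3286481: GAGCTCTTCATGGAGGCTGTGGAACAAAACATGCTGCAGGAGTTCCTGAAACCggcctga
CUST_H6L_06039: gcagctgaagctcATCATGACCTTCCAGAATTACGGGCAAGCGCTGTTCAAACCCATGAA
A_33_P3390823: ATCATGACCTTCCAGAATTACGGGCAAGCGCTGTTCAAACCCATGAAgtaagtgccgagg

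CUST_H6L_28180 had signals of 755 and 2083 (log2 ratio 1.66), and A_33_P3286481, with 53 shared bases, had 877 and 2339 (log2 ratio 1.62). CUST_H6L_06039 had 431 and 169 (log2 ratio -1.15), and A_33_P3390823, with 47 shared bases, had 395 and 162 (log2 ratio -1.08). Both pairs were chosen for a joint change, so their common direction is no finding. Signals were less alike than ratios. The median difference of the log2 signal on NC was 1.21 in pairs sharing 20 to 29 bases, 0.53 with 30 to 44 and 0.31 with 45 or more.

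On opposite strands the likeness of the readings moved with the length of the shared stretch. There were 92 pairs with both probes detected on both arrays, their log2 ratios differed by a median of 0.29, and 30 pairs (32.6%) were more than 1.4-fold apart. Of these 30, 29 were among the 65 pairs sharing 20 to 29 bases (44.6%). Of the pairs sharing 30 to 44 bases, 1 of 23 was (4.35%), and with 45 or more 0 of 4. On the same strand the corresponding shares were 4.43%, 5.45% and 5.63%. Of the 33 pairs with a second-series probe past 1.4-fold, the catalogue probe was past it in the same direction in 10 and in the opposite direction in 5. In 2 cases a second-series probe had exactly the sequence of a catalogue probe. CUST_H6L_79395 had 20500 on NC and 16235 on siFOXA1, against 22939 and 18593 for A_32_P137939. CUST_H6L_79397 had 55996 and 44820, against 59779 and 46191 for A_23_P13899. The log2 ratios were -0.14 and -0.10 in the first pair and -0.12 and -0.17 in the second.

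A second placed subset lay in promoter windows, the 250 bases before to 50 after a gene's start in RefSeq (GRCh38.p14). There 164 second-series probes lay wholly in a window on the gene's strand and 175 on the opposite strand, 328 different probes in all. On NC 57.3% and 59.4% of them were detected. On the gene's strand 8 of 84 detected on both arrays were lower (9.52%) and 3 higher (3.57%), and on the opposite strand 11 of 95 were lower (11.6%) and 7 higher (7.37%), beside 9.32% and 9.23% of all probes. The forkhead motif TGTTTAC, searched on both strands, was found for 26 of the 339 genes with such a probe (7.67%), a single window being counted per gene. Over all windows it was found in 1202 of 35116 (3.42%), where a gene can have several, so the shares differ in unit. The windows were not matched for base composition, and the counts are of letters and not of bound sites.

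Among promoter probes, PSMD2, a proteasome subunit gene, had a probe on its own strand at chr3:184300371-184300430 with signals of 1414 and 2091 (log2 ratio 0.77). The probe of DCAF11 at chr14:24115161-24115220 had 149 and 79.1 (log2 ratio -0.72). SORT1, which encodes a sorting receptor of liver and neurons, had a probe at chr1:109393196-109393255 with 36.9 and 19.9 (log2 ratio -0.69). Of the 12 probes detected on both arrays whose window held TGTTTAC, SORT1 was lower, LOC105375517 was higher with 13.3 and 24.8 (log2 ratio 1.104), and the other 10 did not pass 1.4-fold. ALDOA, a glycolytic enzyme gene, had 4030 and 3239 without passing 1.4-fold. These were chosen after their values were seen, and none of the liver factor, interferon, cell cycle or marker genes listed for this work was among the windows.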

How the data were processed

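RNA of HepG2 cells was measured on 2 one-colour Agilent arrays, NC and siFOXA1, 1 for each condition, and groups were taken from the sample titles. The authors deposited scanner files written by Agilent Feature Extraction 10.7.1.1, whose processed signal is a background-subtracted intensity in cyanine 3, and a table of log2 values whose making is not given in the sources used here. That table has a median of 3.40 on both arrays, and it differed from a quantile normalization of the log2 processed signal by a median of 0.000338 on NC and 0.000352 on siFOXA1. Columns of per-sample values that were not used numbered 0.

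Control spots and spots flagged as outliers were left out. The log2 processed signal of each array was set to its 75th percentile over all probes, and siFOXA1 minus NC gave the ratio. Probes past 1.4-fold were counted without a test, and intensities depend on the probe, so that only ratios are compared between arrays. For matched signal, catalogue probes were weighted over 20 classes of mean scaled signal set on the second-series probes. Alternatives were quantile, median and cyclic loess scaling, no scaling, normexp with an offset of 50 (limma), the deposited log2 table, other filters and folds and, chosen after seeing the data, scaling to the spike-in controls, omission of surrogate signals and omission of probes with GCACAC or CACACA. Named probes were the 5 largest decreases and increases among probes detected on both arrays and past 1.4-fold under percentile scaling, quantile normalization and normexp, the 5 brightest on NC, and probes carrying a count of 5 or fewer. The same rule of size was used for hairpins without the normexp condition, and hairpins of 1 chromosome were left out of the ranking. The members and lists were chosen with earlier results of these data known. Sequences were matched exactly to the RefSeq miRNA and promoter tables of GRCh38.p14, and all other probes are given without a position. The steps were run on simulated data of 138405 probes, where 100% of 200 bright second-series probes changed 2-fold were recovered. The simulated noise was below the SD of 0.24 between identical probes on these arrays. Recovery at 1.4-fold was thus nearly fixed in advance, and the run checks the code and not the power for dim probes. Software versions were limma 3.58.1 under R 4.3.3, and pandas 2.3.3 with scipy 1.17.1 and numpy 2.4.6 under Python 3.11.15.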

Additional observations from a re-analysis of the deposited data

How the results depend on the processing

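Quantile, median and cyclic loess scaling left the counts within 1.5 times the reported ones, which were 3099 decreases and 3049 increases for the 23946 catalogue probes detected on at least 1 array. Without scaling 9620 second-series probes were lower (23.2%) and 2756 higher (6.65%), with 5775 (24.1%) and 1979 (8.26%) in the catalogue. Under normexp the counts were 1122 (2.71%) and 1006 (2.43%), with 1416 (5.91%) and 1148 (4.79%) in the catalogue. With scaling to the spike-in controls, chosen after seeing the data, they were 25415 (61.3%) and 1378 (3.33%), with 14311 (59.8%) and 1064 (4.44%) in the catalogue, and the median log2 ratio of the second series was -0.57. Among probes detected on both arrays 3210 second-series probes were lower. Without a filter on dim probes the second series gave 9402 decreases (12.02%) and 10425 increases (13.3%), and the catalogue 4818 increases (13.9%). At 1.2-fold the counts were 10266 (24.8%) and 8446 (20.4%), with 6128 (25.6%) and 5323 (22.2%) in the catalogue, and at 2-fold 1258 (3.04%) and 1438 (3.47%), with 716 (2.99%) and 1111 (4.64%). With the flag for a positive and significant signal, detection in the second series was 71.2% on NC and 70.9% on siFOXA1. The other 52 recomputed values that answer a comparison moved by less than 1.5 times for counts and stayed within the binomial interval for detection. The medians among them moved by less than 0.24, the SD of the log2 ratio between probes of identical sequence. The unscaled median, -0.22, is among these. The 20 named probes were the 5 largest decreases and the 5 largest increases of the second series and the same of the ranked hairpins. None of their log2 ratios changed sign under the settings run.

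Each condition has 1 array, so the spread between cultures is unknown, and condition and array cannot be told apart. For the 36788 second-series probes detected on neither array no ratio is reported. The software's error covers 1 spot only. No paired analysis was possible because each group has 1 sample.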
